A study of Mus musculus with 2 samples.

Results

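Uncoupling proteins and adenine nucleotide translocators were followed through the differentiation of mouse brown preadipocytes. Genes were taken by symbol, as Ucp1, Ucp2, Ucp3, Slc25a4, Slc25a5 and Slc25a31, and these 6 genes all had a row among the 23361 genes with expression values. RNA-Seq was performed on 1 library of brown preadipocytes (D0) and 1 library of brown adipocytes (D7). Both stages came from interscapular brown adipose tissue of newborn C57BL/6 mice (C57BL/6J in the study's methods), and the labels give insulin and T3 in the medium of both. Between them lay induction with IBMX, dexamethasone and indomethacin at day 0 and culture to day 7. The labels call the cells primary cultures, whereas the study's methods describe immortalization with large T, and the sources used here do not say whether animals were pooled. Values are FPKM, that is, fragments scaled to the length of the transcript and to the size of the library, as deposited.

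All 6 proteins belong to the mitochondrial carrier family of the inner membrane. UCP1 lets protons return to the matrix without passing ATP synthase, so that respiration gives heat. It is activated by free fatty acids and inhibited by purine nucleotides, and is the protein by which brown fat is known. UCP2 is found in many tissues and is abundant in macrophages, and UCP3 is found mainly in skeletal muscle and brown fat. The adenine nucleotide translocators, or ADP/ATP carriers, exchange matrix ATP for cytosolic ADP, and are also known to carry a proton leak that depends on fatty acids. Slc25a4 encodes the form of heart and muscle (ANT1), Slc25a5 the widespread form (ANT2) and Slc25a31 a form of male germ cells (ANT4).

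With 1 library per stage, differences could not be set against replicates, and p-values are not given. Fragments were worked out from 649 genes with a single exon, in which low FPKM values stand in whole steps of 1 fragment. Of the low values of these genes, 92 of 93 at D0 and 98 of 99 at D7 came out whole within 0.1. The denominator of the FPKM was thus 21471087 fragments in the D0 library and 18265373 in the D7 library, and a fragment weighed 1.18 times more in the latter. Intervals at 95% cover counting error only. Those of ratios are exact Clopper-Pearson intervals, and those of single levels are exact Poisson intervals. A ratio interval compares these 2 libraries, not the stages. Among genes above 0 in both libraries the median log2 ratio of D7 to D0 was 0.02. Of 12 brown adipocyte markers, 11 were higher at D7, beside 8597 of all 23361 genes. Among the 11, 4 (Cidea, Elovl3, Cox8b and Otop1) were listed at 0 at D0, while Zic1 was at 6.51 at D0 and 3.97 at D7. Of the 8 markers above 0 in both libraries, 5 were at least 2-fold higher. Prdm16 (ratio 1.22) and Lhx8 (1.18) differed little. All 11 general adipocyte markers were higher at D7. A bulk library cannot tell fewer cells of a type from less RNA per cell.

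Ucp1 was listed at 0 at D0 and stood at 4.57 FPKM at D7 (95% interval 3.78 to 5.44), which corresponded to 121 fragments. Against the limit of 3 fragments, which is 0.0959 FPKM at D0, Ucp1 was at least 47.6-fold higher by its D7 value, and at least 39.4-fold by the low end of its D7 interval. Ucp3 had the same form, with 0 at D0 and 2.97 FPKM at D7 (2.47 to 3.55, 123 fragments). With a limit of 0.0616 FPKM at D0, it was at least 48.3-fold higher by its D7 value and at least 40.1-fold by the low end of its interval. A D7 value of at least 1 FPKM with 0 at D0 was found for 0.334% of the 23361 genes, and 2 of the 6 carriers were among them. By D7 level, Ucp1 ranked 37 and Ucp3 ranked 50 of the 1012 genes listed at 0 at D0 only. Neither reached a high level, since Ucp1 ranked 8716 and Ucp3 9745 of all genes at D7.

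Ucp2 was already present at D0, at 1.68 FPKM (1.25 to 2.20), and was at 48.0 FPKM (45.4 to 50.8) at D7. Its ratio of 28.5 (21.7 to 38.7), or 4.83 on the log2 scale, was higher than that of 98.7% of the 14986 genes above 0 in both libraries. In rank among all genes it moved from 10473 to 1779. At D7 the level of Ucp2 was 10.5 times that of Ucp1 on the FPKM scale, which is per length of transcript. The length behind the Ucp2 value is in doubt, and rescaled to a shorter length the level would be 28.2 times that of Ucp1.

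Slc25a4 and Slc25a5 were abundant at both stages and differed in direction. Slc25a4 was at 465 FPKM (456 to 475) at D0 and 410.0 FPKM (400.4 to 420) at D7, from 9257 and 6919 fragments. Its ratio was 0.881 (0.854 to 0.909), on the 40.5th percentile of ratios. Slc25a5 was at 183 FPKM (178 to 189) at D0 and 461 FPKM (451 to 470.4) at D7, from 4164 and 8886 fragments. Its ratio was 2.52 (2.42 to 2.61), on the 86.4th percentile. At D7 the intervals of the levels of Slc25a4 and Slc25a5 did not overlap, and Slc25a5 was the higher. These intervals cover counting error only, and the order at D7 also depends on the transcript length behind Slc25a4 and on pseudogenes of Slc25a5, whose part was not tested. Slc25a31 was at 0.0241 FPKM at D0 and 0.0568 FPKM at D7, which are 1 and 2 fragments of a gene on chr3:40708855-40726096 (ENSMUSG00000069041.8, plus strand, 6 exons). Both values lie under their limits of 0.0724 and 0.0852 FPKM, so that no fold is given.

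Of the 4 carriers above 0 in both libraries, 3 were at least 2-fold higher at D7 (Ucp2, Slc25a5 and Slc25a31, the last on 1 and 2 fragments) and 0 were at or below 0.5-fold. Over all genes above 0 in both libraries, 18.5% were at least 2-fold higher and 13.2% were at or below 0.5-fold. With each library divided by its own median FPKM (0.730 at D0 and 0.932 at D7), an alternative chosen after seeing the data, the ratio of Slc25a5 was 1.97 and no longer reached 2-fold.

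**Figure D1:**
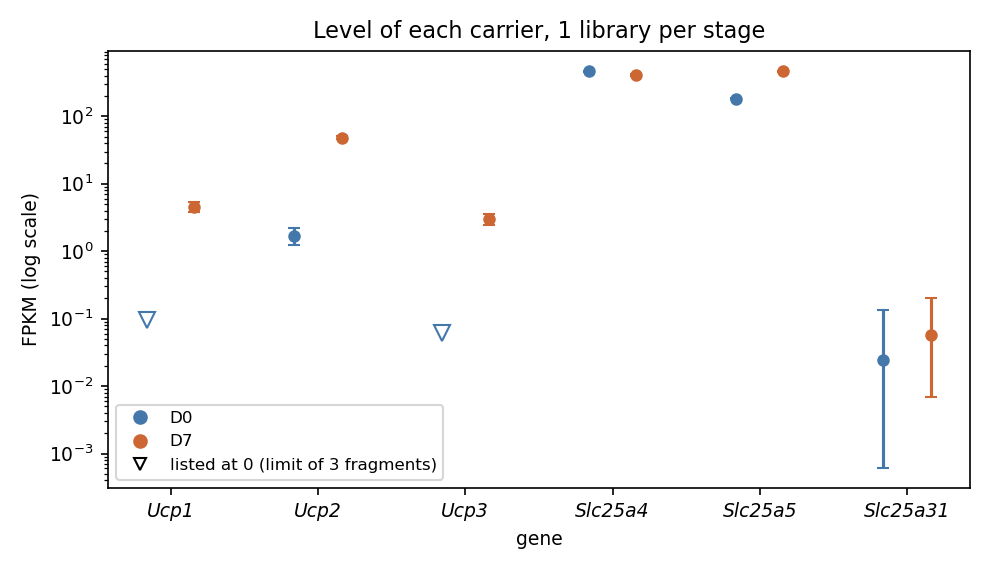
FPKM on a log axis for the 6 carriers at D0 (blue) and D7 (orange), 1 library per stage, with bars for 95% counting intervals and open triangles for genes listed at 0, drawn at the limit of 3 fragments. Ucp1 and Ucp3 go from triangles at D0 to 4.57 and 2.97 FPKM at D7, Ucp2 from 1.68 to 48.0, and Slc25a4 and Slc25a5 stay above 100 FPKM.

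Ucp1 (ENSMUSG00000031710.4) lies on the plus strand of chr8:83290352-83298452 in mm10 and has 6 exons, with a transcript of 1636 bases and a coding sequence of 924 bases. Ucp3 (ENSMUSG00000032942.14, chr7:100472990-100486432, 7 exons) and Ucp2 (ENSMUSG00000033685.13, chr7:100493337-100502020, 8 exons) lie one after the other on the plus strand, with 6904 bases between the end of Ucp3 and the start of Ucp2. The 3 uncoupling protein genes were all higher at D7, and the RefSeq promoter table (GRCm38.p6, 27025 genes) held all 6 carriers. The 250 bases before the start that this table gives for each gene were searched on both strands for AGGTCA, the half-site bound by nuclear receptors such as PPARγ, thyroid hormone receptor and retinoid X receptor. Ucp1 held 1 copy, from 14 to 9 bases before the start, and Ucp3 held 2 copies, whose first bases were 149 and 44 bases before the start. The other 4 carriers held 0 copies, although for Ucp2 and Slc25a4 the start in the table lies inside the gene coordinates given here, so that the window holds part of the annotated gene. Of all promoters, 13.8% held at least 1. Any part of half-sites in the values of the carriers was not tested. The promoters of Ucp1 and Ucp3, which held the half-site, are shown 5′ to 3′ with it in capitals. They are chr8:83290098-83290347 and chr7:100472741-100472990, both on the plus strand.
Ucp1 promoter: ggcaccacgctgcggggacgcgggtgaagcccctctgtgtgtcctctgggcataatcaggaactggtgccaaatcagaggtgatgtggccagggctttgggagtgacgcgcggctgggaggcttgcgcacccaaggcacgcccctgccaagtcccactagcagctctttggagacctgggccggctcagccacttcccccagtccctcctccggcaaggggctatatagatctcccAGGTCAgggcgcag
Ucp3 promoter: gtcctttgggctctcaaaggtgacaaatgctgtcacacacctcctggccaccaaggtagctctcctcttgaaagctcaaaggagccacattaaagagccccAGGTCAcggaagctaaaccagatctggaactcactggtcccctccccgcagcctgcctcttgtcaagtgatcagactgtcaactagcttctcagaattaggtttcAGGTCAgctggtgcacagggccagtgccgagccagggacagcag

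CACCC, which the study names as a KLF motif, was searched on both strands and was present in the promoters of Ucp1 (2 copies), Ucp2, Slc25a4 and Slc25a5 (1 copy each), and in 51.3% of all promoters. CCAAT was found only in that of Slc25a4 among the 6 carriers, with 2 copies, and in 34.5% of all promoters. A match is a description of these letters in this window, and its absence says nothing of the factor.

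The study measured Ucp1 by qPCR as well, and its primers show which piece of the transcript that assay reads.
Ucp1 primer listed as forward: actgccacacctccagtcatt
Ucp1 primer listed as reverse: ctttgcctcactcaggattgg
Among annotated transcripts, both primers matched Ucp1 alone. The primer listed as reverse matched the sense strand in exon 2 (chr8:83291536-83291556) and that listed as forward the antisense strand in exon 3 (chr8:83293925-83293945). The product is 123 bases of coding sequence spanning the junction of the exons, whereas the RNA-Seq value covers the gene. The study reported Ucp1 as upregulated at D7 by qPCR, and the qPCR values were not analysed here.

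The composition of each group differed between the libraries. The summed level of the 3 uncoupling proteins was 1.68 FPKM at D0, all of it Ucp2, and 55.6 FPKM at D7, a ratio of 33.0. At D7 Ucp2 made up 86.4% of the sum, Ucp1 8.22% and Ucp3 5.35%. The summed level of the 3 ADP/ATP carriers was 648 FPKM at D0 and 871 FPKM at D7, a ratio of 1.34. Slc25a4 made up 71.7% of that sum at D0 and 47.1% at D7, and Slc25a5 28.2% and 52.9%. Slc25a5 over Slc25a4 was 0.394 (0.380 to 0.408) at D0 and 1.12 (1.09 to 1.16) at D7. This quotient, taken within each library, does not depend on scaling between the libraries, and it was 2.85 times as high at D7. Even at D7 the level of Ucp1 was 0.00992 of that of Slc25a5.

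**Figure D2:**
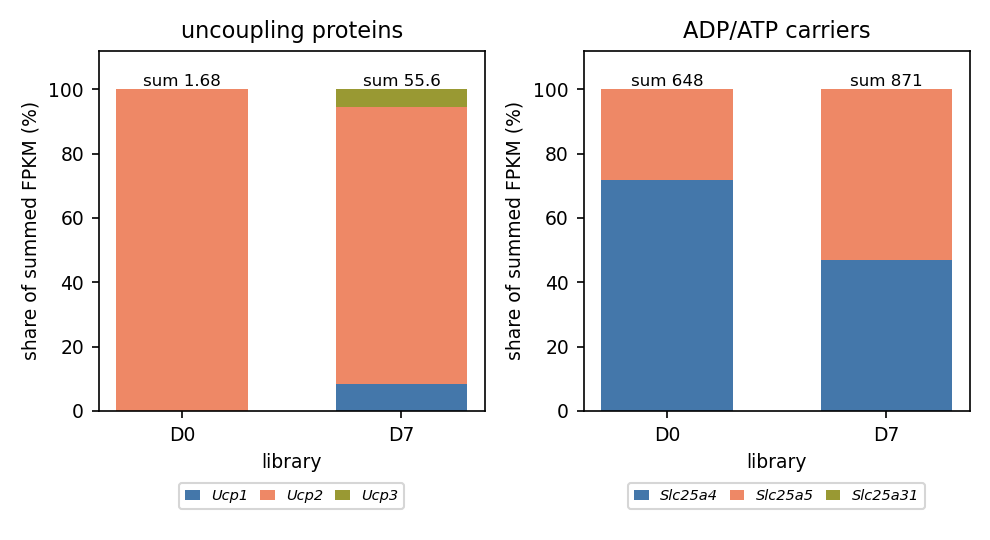
Share of the summed FPKM (%) of the uncoupling proteins (left) and the ADP/ATP carriers (right) in the D0 and D7 libraries, with each sum above its bar. Ucp2 fills 100% of the uncoupling protein bar at D0 and 86.4% at D7, and Slc25a5 goes from 28.2% to 52.9% of the ADP/ATP carrier bar.

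Several features of these genes touch the values. The deposited Ucp2 locus ends at 100502173 and overlaps 458 bases of Dnajb13, a gene of the minus strand that was at 0 FPKM at D0 and 0.114 FPKM at D7. Of the 3988 bases of the Ucp2 transcript used here, 3980 lie within the deposited locus. The RefSeq gene ends at 100499629 and holds only 1597 bases of the same transcript. Which length the authors used is not given. If it was the shorter one, the deposited values stand for 51 fragments at D0 and 1241 at D7, on which the intervals above rest. If it was the longer one and the reads came from the RefSeq part, Ucp2 would be at 4.51 FPKM at D0 and 129 FPKM at D7. Its share of the uncoupling proteins at D7 would then be 94.5%. Gm10603, an antisense gene without a row in the table, overlaps 1856 bases of Ucp3. The libraries kept the strand, since their second cDNA strand was degraded, but whether counting used it is not given in the sources used here. The part of these overlapping genes in the Ucp2 and Ucp3 values was not tested. For Slc25a4 (ENSMUSG00000031633.4, chr8:46206797-46211284, minus strand, 4 exons) the deposited locus holds 1106 of the 1925 bases of the annotated transcript, and the RefSeq gene holds 1332. Its level, its order against Slc25a5 and the shares of both depend on the length used. So do the sum of the ADP/ATP carriers, the ratio of that sum and its proportion to other genes.

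Slc25a5 (ENSMUSG00000016319.3, chrX:36795651-36798807, plus strand, 4 exons) is the member with near-identical copies. Its transcript was cut into 1151 windows of 90 bases, the length of the reads. Each was compared with the annotated transcripts that a BLAST+ search found similar, and with the other carriers. Up to 5 mismatches were taken, as the authors' alignment allowed. Within 5 mismatches of an annotated pseudogene lay 87.6% of the windows, and 19.1% were identical to one. The 11 pseudogenes included Gm5560 (69.8% of windows within 5 mismatches), Gm5529 (56.7%) and Slc25a5-ps (52.3%), and 0 of the 11 had a row in the table. The part of these copies in the Slc25a5 value was not tested. Ucp1, Ucp3, Slc25a4 and Slc25a31 had 0 such windows, and no window of one carrier lay within 5 mismatches of another carrier. Of the Ucp2 windows, 5.54% were identical to Dnajb13, the gene that its deposited locus overlaps.

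**Figure D3:**
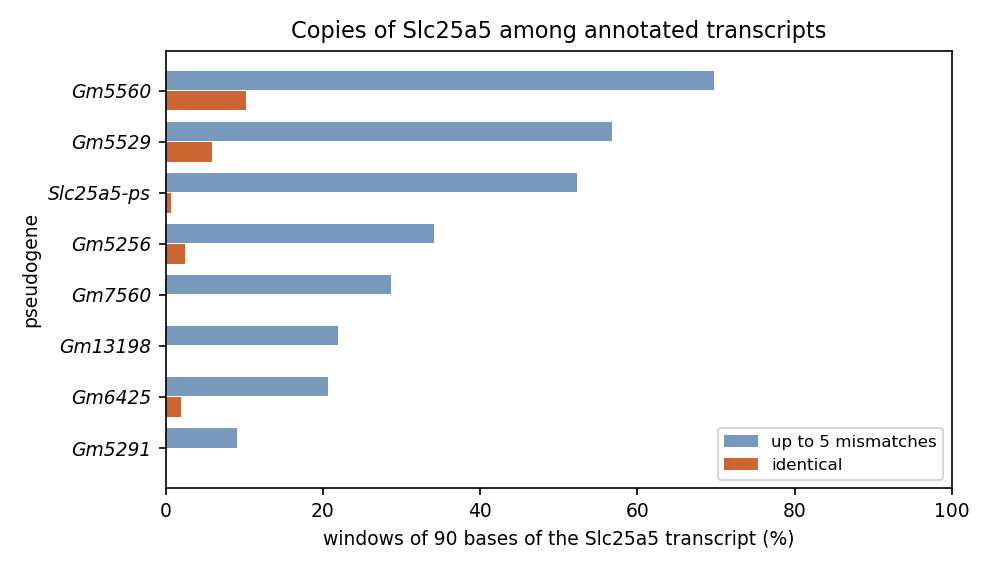
Percent of the 1151 windows of 90 bases of the Slc25a5 transcript that match each pseudogene with up to 5 mismatches (blue) or exactly (orange), for the 8 of 11 pseudogenes with at least 5% of windows. Gm5560 is the closest, with 69.8% of windows within 5 mismatches and 10.2% identical.

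Among the 50 genes of the mitochondrial carrier family in the table (symbols that start with Slc25, with the 3 uncoupling proteins), Slc25a4 ranked 1 at D0 and 3 at D7, and Slc25a5 ranked 3 and 2. The first place at D7 was held by the citrate carrier Slc25a1, at 93.4 FPKM at D0 and 840.1 FPKM at D7. Ucp2 ranked 36 at D0 and 12 at D7, and Ucp1 and Ucp3 ranked 32 and 37 at D7. Slc25a4 and Slc25a5 together made up 44.8% of the summed FPKM of the family at D0 and 28.1% at D7, while that sum was 1447 FPKM and 3096 FPKM. The uncoupling proteins made up 0.116% and 1.79%. Of the 44 other carriers, 39 were above 0 in both libraries, 17 of them at least 2-fold higher at D7 and 3 at or below 0.5-fold, with a median log2 ratio of 0.71. Among the 35 carriers with at least 1 FPKM in both libraries, Ucp2 had the second highest ratio after the dicarboxylate carrier Slc25a10 (30.3). The lowest ratios among these 35 were those of Slc25a24 (0.356), Slc25a12 (0.590) and Slc25a30 (0.662). Lower ratios were found for carriers under 1 FPKM at D7, namely Slc25a13 (0.222, from 3.77 to 0.839 FPKM) and Slc25a43 (0.259, from 1.79 to 0.464 FPKM).

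**Figure D4:**
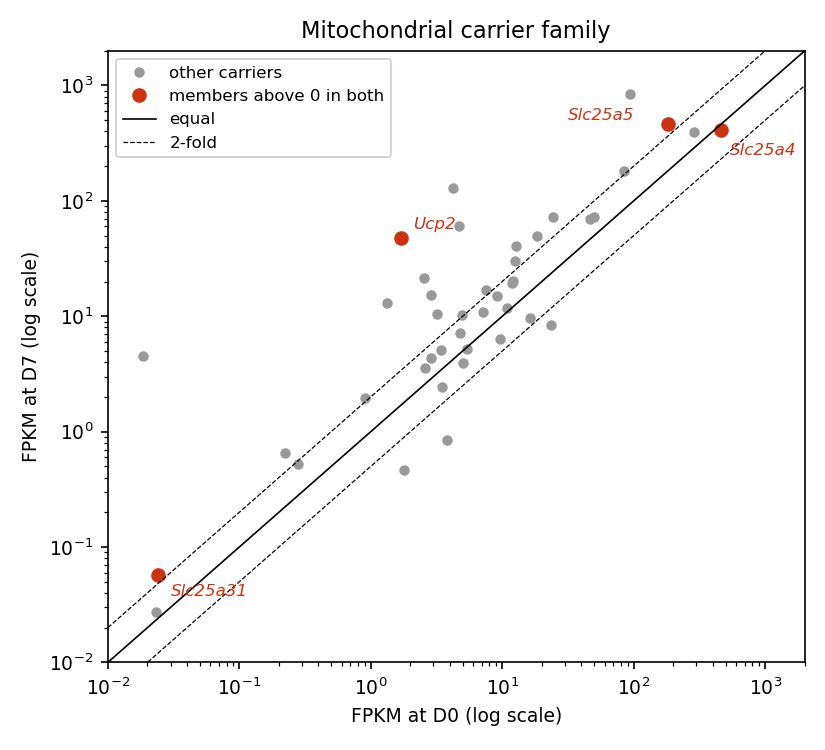
FPKM at D7 against FPKM at D0, both on log axes, for the carrier family genes above 0 in both libraries (grey) with the 4 members among them (red), and lines for equal levels and 2-fold differences. Ucp2 lies far above the upper 2-fold line with a ratio of 28.5, Slc25a5 just above it with 2.52 and Slc25a4 below the line of equal levels with 0.881.

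The carriers related in sequence to the uncoupling proteins did not share one direction. Of these 7 genes, 4 were at least 2-fold higher at D7 and 0 at or below 0.5-fold, with a median log2 ratio of 1.56. Slc25a14 (UCP5) was at 3.48 FPKM at D0 and 2.42 FPKM at D7, and Slc25a30 (KMCP1) at 9.55 and 6.32 FPKM. Slc25a27 (UCP4) was at 0.223 and 0.656 FPKM. Slc25a35 was at 1.33 and 13.1 FPKM, and Slc25a34 at 0.0186 and 4.49 FPKM, the latter being close to the D7 level of Ucp1.

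By their list median, the partners of ADP/ATP exchange were nearer to Slc25a5 and Slc25a4 than to Ucp2. Single genes differed, and Ckmt1 (log2 ratio 3.82, at 0.0330 and 0.467 FPKM) and Slc25a23 (3.09) were nearer to Ucp2. Of 16 such genes, 14 were above 0 in both libraries, 6 at least 2-fold higher and 1 at or below 0.5-fold, with a median log2 ratio of 0.58. The phosphate carrier Slc25a3, which brings in the phosphate for ATP synthesis, was at 289 FPKM at D0 and 393 FPKM at D7. The summed level of Slc25a4 and Slc25a5 was 2.24 times that of Slc25a3 at D0 and 2.22 times at D7. On the deposited values this proportion was thus nearly equal in both libraries, but it depends on the transcript length behind Slc25a4. Vdac2, a pore of the outer membrane, was at 157 and 165 FPKM, and Vdac3 at 111 and 121 FPKM. The adenylate kinase Ak3 of the matrix was at 26.6 and 145 FPKM. Atpif1, the inhibitor of ATP synthase, was at 248 and 127 FPKM.

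By their list medians, subunits of ATP synthase and of the respiratory chain were higher at D7 by more than the ADP/ATP carriers in sum (ratio 1.34). Among single ATP synthase subunits, Atp5e (1.32), Atp5j (1.25), Atp5g2 (1.14) and Atp5g1 (0.790) were below that ratio. Of the 16 ATP synthase subunits, 8 were at least 2-fold higher and 0 at or below 0.5-fold, with a median log2 ratio of 1.03. Atp5b, the catalytic subunit, was at 672 FPKM at D0 and 2437 FPKM at D7, and Atp5g1 was the one lower at D7, at 143 and 113 FPKM. The summed Slc25a4 and Slc25a5 level was 2.26 times the median ATP synthase subunit at D0 and 1.51 times at D7. Of the 16 proton pump subunits and cytochrome c, 15 were above 0 in both libraries, and all 15 were at least 2-fold higher, with a median log2 ratio of 1.99. Cox8b, a cytochrome c oxidase subunit of brown fat and muscle, was at 0 at D0 and 253 FPKM at D7, and Cox7a1, another such subunit, was at 7.96 and 389 FPKM. Set against the median of these genes, which was 84.2 FPKM at D0 and 407 FPKM at D7, the summed carrier level was 7.70 times at D0 and 2.14 times at D7. The Ucp1 level at D7 was 1.12% of that median.

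Regulators of Ucp1 transcription were measured beside it. Of 19 activators, 18 were above 0 in both libraries, 10 at least 2-fold higher at D7 and 0 at or below 0.5-fold, with a median log2 ratio of 1.43. The highest ratios were those of Adrb3, the β3-adrenergic receptor, at 0.125 FPKM at D0 and 59.7 FPKM at D7, of the coactivator Ppargc1a at 0.0370 and 4.41 FPKM, and of Pparg at 3.83 and 128 FPKM. Irf4 was at 0 at D0 and 1.98 FPKM at D7. The lowest ratios were those of Cebpb (47.5 and 30.9 FPKM), Zfp516 (11.1 and 8.69 FPKM) and Prdm16 (0.835 and 1.02 FPKM). Of 5 repressors, 3 were at least 2-fold higher as well and 0 at or below 0.5-fold, with a median log2 ratio of 1.81. They were Nr1h3 (LXRα) at 2.53 FPKM at D0 and 33.6 FPKM at D7, Rb1 at 4.58 and 18.3 FPKM, and the corepressor Nrip1 (RIP140) at 3.22 and 11.3 FPKM. Twist1 (42.2 and 37.9 FPKM) and Rbl1 (1.91 and 1.69 FPKM) were lower at D7.

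Fatty acids are the activators of UCP1. Genes that release, take up or carry them, or control their release, had a median log2 ratio of 5.20, beside 4.83 for Ucp2 and 1.33 for Slc25a5. The list includes G0s2, which restrains their release, at 6.94 and 379 FPKM. Of 15 such genes, 14 were above 0 in both libraries, 13 at least 2-fold higher and 1 at or below 0.5-fold. The fatty acid transporter Cd36 was at 0.665 FPKM at D0 and 478 FPKM at D7, and the acyl-CoA synthetase Acsl1 at 3.89 and 500.4 FPKM. Fabp4, a fatty acid binding protein of adipocytes, was at 20.3 FPKM at D0 and 14391 FPKM at D7. Fabp3, the form of heart and muscle, was at or below 0.5-fold, at 37.9 and 7.29 FPKM. The acylcarnitine carrier Slc25a20, itself of the carrier family, was at 24.3 and 73.0 FPKM, Cpt2 at 20.4 and 129 FPKM, and Slc27a2 was at 0 in both libraries.

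**Figure D5:**
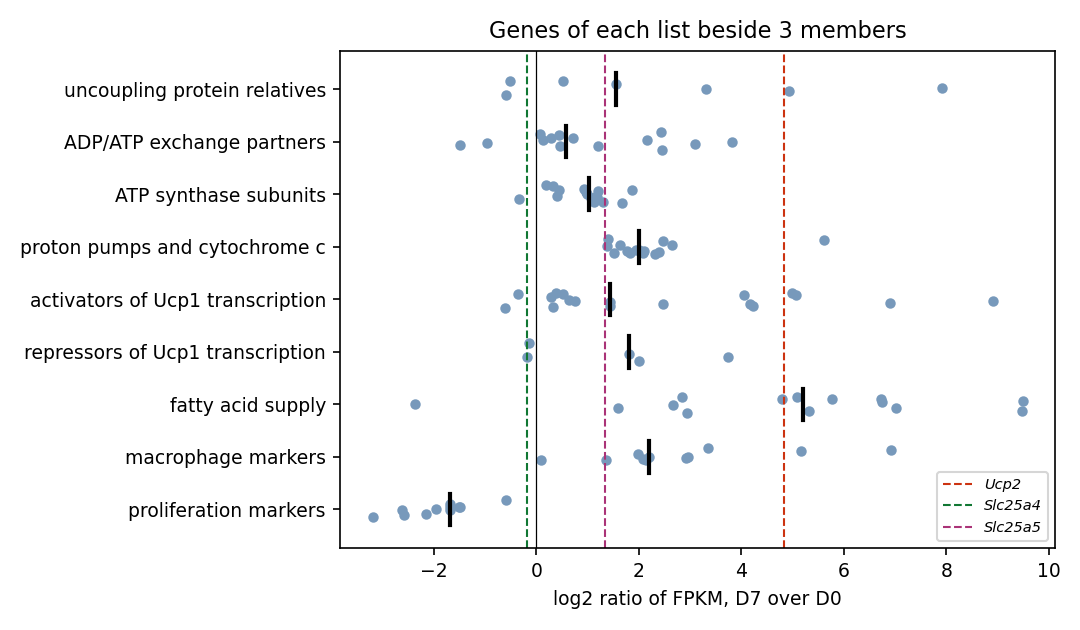
Log2 ratio of FPKM, D7 over D0, for the genes of 9 lists above 0 in both libraries (points, spread vertically for legibility), with each list's median as a black bar and dashed lines at Ucp2 (4.83), Slc25a5 (1.33) and Slc25a4 (-0.18). Fatty acid supply has its median at 5.20, above Ucp2, and proliferation markers have theirs at -1.70.

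Markers of other cell types moved with some of these values. All 11 macrophage markers were above 0 in both libraries and higher at D7, 10 of them at least 2-fold (Cd14, at 4.81 and 5.08 FPKM, was the exception), and their sum was 146 FPKM at D0 and 519 FPKM at D7, a ratio of 3.54. The highest ratios were those of Cd163 (0.0110 and 1.33 FPKM) and Mrc1 (0.589 and 21.1 FPKM). Ucp2 is abundant in macrophages, and their part in the Ucp2 value was not tested. Of 11 proliferation markers, 10 were at or below 0.5-fold at D7, with a sum of 144 FPKM at D0 and 57.2 FPKM at D7, and their part in the values of the carriers was not tested. Of 10 skeletal muscle markers, 5 were above 0 in both libraries, and the sum was 46.7 FPKM at D0 and 3.51 FPKM at D7, of which Acta1 held 45.4 and 1.73 FPKM. Myod1, Myf5 and Ckm were at 0 in both libraries, and 4 markers were higher at D7, namely Myh1 (0.0239 and 0.563 FPKM), Myh2 (0 and 0.148 FPKM), Myog (0 and 0.0422 FPKM) and Mylpf (0.647 and 0.956 FPKM). The value of Myog lay under the lowest D7 limit among the carriers (0.0725 FPKM, for Ucp3), and its own limit was not computed. Slc25a4 and Ucp3 are both known from muscle, and the part of muscle cells in their values was not tested. Of 7 germ cell markers, Tnp1, Prm1, Pgk2 and Ldhc were at 0 in both libraries. The other 3 had a median log2 ratio of 2.23 and a sum of 0.287 FPKM at D0 and 1.72 FPKM at D7. Over all 7 the median was 0 with a pseudocount of 0.1 or 1. The 3 were Sycp3 (0.148 and 1.51 FPKM), Dazl (0.0169 and 0.0793 FPKM) and Ddx4 (0.122 and 0.123 FPKM). The ratio of Ddx4 was 1.01, under the 1.18 that a fragment weighs at D7 over D0. The part of germ cells in the Slc25a31 value was not tested. Of 6 endothelial markers 2 were at least 2-fold higher and 1 at or below 0.5-fold, and of 4 erythroid markers 3 were at 0 in both libraries.

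The genes most like each carrier were found by distance in log2 FPKM over the 2 libraries, or, for Ucp1 and Ucp3, by the difference of log2 FPKM at D7 among genes at 0 at D0. For Slc25a5 they were Ctsb (183 and 495 FPKM, distance 0.103), Cox5a (178 and 506 FPKM, 0.141) and Atp5d (192 and 417 FPKM, 0.160), of which the latter pair encode subunits of the respiratory chain and of ATP synthase. For Slc25a4 they were Akr1a1 (461 and 443 FPKM, distance 0.114), Timp2 (497 and 375 FPKM, 0.162) and Nedd4 (442 and 357 FPKM, 0.212). For Ucp2 they were Arxes1 (1.43 and 50.7 FPKM, distance 0.250), Rarres2 (1.85 and 40.5 FPKM, 0.280), which encodes the adipokine chemerin, and Rgs2 (1.66 and 38.8 FPKM, 0.309). For Ucp1 they were Rgs7, Ly6h and Hif3a, at 4.55, 4.66 and 4.69 FPKM at D7. For Ucp3 they were Krt36, Ffar2 and 1700029I15Rik, at 2.95, 3.0 and 3.0 FPKM at D7. With 2 libraries, likeness describes a pair of levels only.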

How the data were processed

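Total RNA was taken at D0 and D7 and sequenced on an Illumina instrument, 1 library per stage. The authors filtered reads, removed duplicates and rRNA reads, used SOAP2 to align the rest to mm10 and gene sequences with up to 5 mismatches, and deposited an FPKM value for each gene in each library. The submitters' processing notes list Bowtie2 and mm10. The counter, its annotation and the gene lengths are not given in the sources used here, and GeneSpring is named beside the FPKM values. Of 27324 rows, 3963 carried no value. All columns were matched to a library.

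Ratios of D7 to D0 were formed from the deposited FPKM without a pseudocount or rescaling, for genes above 0 in both libraries, and called at 2-fold or 0.5-fold. Fragments were recovered from single-exon genes of at least 600 bases in GENCODE M21. In this step 179 bases at D0 and 182 at D7 were taken from each length. A value at 0 was set at the limit of 3 fragments. For genes with several exons the length used by the authors is not known, so their fragments and intervals are approximate. For Ucp2 they rest on the shorter RefSeq length. The members and lists were chosen with earlier results of these data known. All 6 members are named. In lists of over 8 genes the rule allowed the 3 highest and 3 lowest ratios and the genes at 0. Not all of these are named, and further members were chosen as examples after their values were seen, as were Slc25a1, Slc25a13 and Slc25a43. For the carrier family the rule took the 3 highest and 3 lowest ratios at FPKM of at least 1, and for each member the 3 most like genes. Not every gene that these rules allow is reported here. Alternatives were a pseudocount of 0.1 or 1, scaling by TPM, by the median ratio or by the upper quartile, a filter at FPKM of 1 and a threshold of 4-fold. Division by the library median and the shorter Ucp2 length were added after seeing the data. Near copies were searched with BLAST+ 2.17.0 and compared window by window. The scripts were tested on simulated data and used pandas 2.3.3, numpy 2.4.6, scipy 1.17.1 and matplotlib 3.10.9 under Python 3.11.15.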

Additional observations from a re-analysis of the deposited data

How the results depend on the processing

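No paired analysis was possible because each stage had 1 library, and for the same reason no replicate could be left out. The ratios of Ucp2, Slc25a4 and Slc25a5 and the bounds of Ucp1 and Ucp3 kept their direction under the alternatives run, and Slc25a31 was given no ratio. With a pseudocount of 1 the ratio of Ucp2 was 18.3. The ratio of Slc25a4 was 0.910 with median centring, 0.854 with the upper quartile and 0.690 with division by the library median. Under the last, Slc25a5 was at 1.97, Ucp1 at least 37.3-fold and Ucp3 at least 37.8-fold higher, and 1 carrier was at least 2-fold higher. At a threshold of 4-fold 1 carrier was higher. The share of all genes under the library median or at 4-fold is not given here, so these counts cannot be set against it. The ratio of summed ADP/ATP carriers was 1.39 with median centring and 1.05 with the library median. With its FPKM rescaled from the longer to the shorter length, Ucp2 held 94.5% of the uncoupling proteins at D7. These scalings moved all log2 ratios by -0.03 (TPM), 0.05 (median centring), -0.05 (upper quartile) and -0.35 (library median). The median log2 ratio of uncoupling protein relatives ranged from 0.52 to 1.91 over the alternatives, that of ADP/ATP exchange partners from 0.23 to 0.63 and that of macrophage markers from 1.65 to 2.24. That of endothelial markers, from -0.12 to 1.63, and that of erythroid markers, from -0.12 to 0.28, changed sign with the library median. With the deposited FPKM the former was the value of Pecam1 (0.0152 and 0.0178 FPKM) and the latter that of Alas2 alone (0.0265 and 0.0312 FPKM). Both ratios were 1.18, the weight of a fragment at D7 over D0, which equal fragment counts would give. These medians near the floor thus cannot show whether the markers differed. The filter at FPKM of 1 left no erythroid marker. Slc25a31 lies at the limit of detection, and without replicate libraries the spread between cultures is unknown.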

Other observations

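Carriers of ATP-Mg and phosphate, which set the total adenine nucleotide of the matrix rather than exchange it, differed in direction. Slc25a23 was at 2.53 FPKM at D0 and 21.6 FPKM at D7, Slc25a24 at 23.6 and 8.40 FPKM, and Slc25a25 at 9.19 and 15.0 FPKM. Slc25a24 was thus the more abundant of the 3 at D0 and the least abundant at D7. Slc25a41 was listed at 0 in both libraries. Slc25a42, a carrier of coenzyme A and adenine nucleotides, was at 2.86 and 15.4 FPKM. Ppif, which encodes cyclophilin D of the matrix, was at 6.67 and 29.9 FPKM, and Ckmt2, a mitochondrial creatine kinase of muscle, was listed at 0 in both libraries.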
